A study of Mus musculus with 6 samples.

Results

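The miR-379 to miR-410 cluster is the distal miRNA cluster of the Dlk1-Dio3 domain on mouse chromosome 12. Its members were taken as all rows, of either arm, that carry the name of 1 of 36 listed hairpins running from miR-379 to miR-410. This gave 61 mature miRNAs of the 778 in the table, 29 from the 5p arm and 32 from the 3p arm. Of the 36 hairpins, 34 had at least 1 row, and miR-654 and miR-544 had none. Counted by name, with miR-299b of the opposite strand apart from miR-299, there were 35 hairpins, of which 26 were listed with both arms and 9 with 1 arm.

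The cells were primary mesangial cells of mouse, which support the capillaries of the glomerulus and can contract, and the small RNA of 6 cultures or preparations was sequenced. The Control group (3 libraries) received no cytokine and the TGF-b1 group (3 libraries) received transforming growth factor β1 (TGF-β1), a driver of matrix deposition and scarring, at 10 ng/ml for 72 h. Both groups shared medium with 25.5 mM glucose and 20% serum, and both came from passages 3 to 6, so the Control cells were also in high glucose. The strain, age and number of animals behind the cells, and whether replicates were separate cultures, are not given in the sources used here, so the p-values measure only the spread between these libraries, which may be technical. The comparison asks which cluster miRNAs differ in abundance after TGF-β1, and whether this depends on position or arm.

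The Dlk1-Dio3 domain is imprinted. Its protein-coding genes, such as Dlk1, Rtl1 and Dio3, are transcribed from the paternal chromosome, and its noncoding RNAs, Meg3, Rian and Mirg, from the maternal chromosome. The distal miRNAs are thought to be cut from a long shared maternal transcript, and they are known mainly from brain, embryo and placenta. In mesangial cells a host transcript of this cluster has been described as responsive to TGF-β1 and high glucose. Each hairpin can give a mature miRNA from its 5p and its 3p arm, and the seed, bases 2 to 8 of the mature miRNA, is the part that pairs with most target mRNAs.

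On the NCBIM37 genome, the build the study used for its RNA reads, GENCODE vM1 places the cluster on the plus strand at chr12:110947235-110982005, from the start of Mir379 to the end of Mir410, a span of 34771 bp. Of the hairpins with rows, 28 are in that annotation and 7 are not. Mirg, a long noncoding RNA gene, covers chr12:110973191-110987665 and holds 7 of the 28 hairpins. Mir154, Mir496 and Mir541 lie in its introns, whereas Mir377, Mir412, Mir369 and Mir410 overlap its exons. The other 21 hairpins lie in no other annotated gene, and Mir485 ends 3 bp before Mirg.

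The mature sequences below are those of the members whose values are given in full and of 2 relatives with a like seed, miR-1193-5p and miR-376b-3p. They were copied from RefSeq on GRCm38.p6, 5′ to 3′, with the seed in capitals. A sequence was matched by name for 58 of the 61 members, and miR-485-5p, miR-487b-3p and miR-376c-3p are given by name only. The first set holds the arms of the hairpins at both ends of the cluster, with miR-1193-5p beside miR-379-5p, whose seed it shares.
miR-379-5p: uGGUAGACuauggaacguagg
miR-1193-5p: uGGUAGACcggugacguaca
miR-411-5p: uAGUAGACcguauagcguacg
miR-379-3p: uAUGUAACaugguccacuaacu
miR-411-3p: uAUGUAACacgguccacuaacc
miR-369-5p: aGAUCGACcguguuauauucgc
miR-369-3p: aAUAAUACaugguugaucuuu
miR-410-5p: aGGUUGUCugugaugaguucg
miR-410-3p: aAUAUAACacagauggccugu

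The second set holds the other members with the highest levels or the largest changes, and miR-376b-3p, a close relative of miR-376a-3p that had 1 to 5 reads in a Control library and 2 to 10 in a TGF-b1 library.
miR-382-5p: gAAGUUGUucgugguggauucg
miR-382-3p: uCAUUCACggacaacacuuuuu
miR-485-3p: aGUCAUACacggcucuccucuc
miR-541-5p: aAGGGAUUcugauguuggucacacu
miR-543-3p: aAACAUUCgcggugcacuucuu
miR-495-3p: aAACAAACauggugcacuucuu
miR-329-3p: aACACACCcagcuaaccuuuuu
miR-323-3p: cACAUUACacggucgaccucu
miR-376a-3p: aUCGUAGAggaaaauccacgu
miR-376b-3p: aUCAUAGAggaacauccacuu

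The cluster was diverse in sequence, with 53 different seeds among the 58 members. Counting positions from 1 at the 5′ end, miR-379-5p and miR-1193-5p had the same seed and differed at 10 later positions. MiR-411-5p differed from miR-379-5p by G2A in the seed and at 6 positions outside it. The 3p arms of the same pair of neighbours, miR-379-3p and miR-411-3p, shared a seed and differed by U10C and U22C. MiR-543-3p and miR-495-3p differed at 2 seed positions, by U6A and U7A, and miR-376a-3p and miR-376b-3p at 1, by G4A. The counting of reads that fit more than 1 miRNA is not described in the sources used here, so the split of reads between near-identical members is uncertain. This holds within the miR-376 family and for miR-299-3p, whose first 18 bases are the whole of miR-299b-3p. ADAR enzymes are known to edit the seed of miR-376 miRNAs, and edited reads were not examined here.

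Levels are given in RPM, reads per 1000000 reads in the whole library. Library totals ran from 16478281 to 17623671 reads in Control and from 17086815 to 20169254 in TGF-b1, so 1 read was worth 0.0496 to 0.0607 RPM. At a 1-sided 95% limit a count of 0 allows up to 3 reads, or 0.149 to 0.182 RPM. The 95% exact binomial intervals used below end at 0.183 to 0.224 RPM for 0 reads. The listed miRNAs took 79.5% to 79.8% of the total in Control but 71.6% to 73.1% in TGF-b1. TGF-b1 replicate 1 stood furthest from its group, at 104 and 164 chi-square units per degree of freedom from the other two, against 43.2 to 73.6 for the remaining pairs within groups. MiRNAs that mark mesenchymal and contractile cells (miR-21, miR-143, miR-145, miR-199 and miR-214) summed to 18248 to 20051 RPM in Control and 18606 to 22543 in TGF-b1, mostly miR-21-5p, and of 10 tested rows 1 was higher, miR-145-5p, and 5 were lower. The endothelial miR-126 and a blood list stayed at or below 0.298 and 0.659 RPM in every library. An epithelial list, mostly miR-192-5p, summed to 317 to 332 RPM in Control and 343 to 367 in TGF-b1, but 4 of its 6 tested rows, all of the miR-200 family, were lower and 2 were higher. A muscle list, mostly miR-206-3p, summed to 3440 to 3646 RPM in Control and 3285 to 3466 in TGF-b1, with 0 of 2 tested rows higher and 0 lower. A neuron list was lower after TGF-β1, at 328 to 384 RPM against 229 to 240, almost all of it miR-128-3p. Neuron-defining miR-124-3p had a mean of 1.38 RPM in Control and 0.694 in TGF-b1, and 2 of 3 tested rows of the list were lower and 0 higher. For comparison with these lists, 17.4% of all 408 tested miRNAs were higher and 31.9% lower. The part of cell composition in the results below was not tested, and in bulk RNA a change in the number of cells of a type and a change in RNA per cell cannot be told apart.

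Summed over its 61 members, the cluster took a larger share of the reads in every TGF-b1 library than in any Control library. The sum was 124.9, 128.3 and 122.1 RPM in Control replicates 1 to 3, with 95% exact binomial intervals of 120 to 130, 122.9 to 133.8 and 117 to 127.3 RPM. In TGF-b1 replicates 1 to 3 it was 280.1, 237 and 233 RPM, with intervals of 273 to 288, 230 to 244 and 226 to 240 RPM. These intervals cover counting error only and treat reads as independent. PCR copies are not independent molecules, so the intervals may be too narrow even for that error. The groups did not overlap, and TGF-b1 replicate 1 was the highest library. The means were 125.1 ± 3.12 RPM for Control and 250 ± 26.2 RPM for TGF-b1 (mean ± SD, n = 3 each), a ratio of 1.999, which became 2.20 when each sum was taken as a share of the listed reads only. The cluster remained a small share of the small RNA, with 2058 to 2151 reads in a Control library and 3979 to 5650 in a TGF-b1 library.

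Both arms had higher sums in TGF-b1. The 5p members summed to 70 ± 1.95 RPM for Control and 143.1 ± 10.1 for TGF-b1, a ratio of 2.04, and the 3p members to 55.1 ± 4.53 and 106.9 ± 16.3, a ratio of 1.94 (SD, n = 3 each). Without the 2 arms of miR-382, the most abundant hairpin, the sums were 78.4 ± 1.60 and 163.5 ± 7.18 RPM, a ratio of 2.09. The 4 most abundant members, both arms of miR-382, miR-485-5p and miR-541-5p, together made up 60.7% of the cluster's mean sum in Control and 60.2% in TGF-b1.

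Of the 61 members, 26 had enough reads to be tested, 13 from each arm, and 35 did not. With limma on log2(RPM + 1) and Benjamini-Hochberg adjustment over all 408 miRNAs tested, 19 of the 26 were higher in TGF-b1 at an adjusted p under 0.05, which is 73.1%, and 0 were lower. Over all tested miRNAs 71, or 17.4%, were higher and 130, or 31.9%, were lower. At an unadjusted p under 0.05, 21 of the 26 members were higher and 0 lower, against 78 of 408, or 19.1%, higher over all. All 26 had a log2 change above 0, from 0.10 to 1.22, with a median of 0.69, whereas the median over all tested miRNAs was -0.17. MiR-380-3p, miR-487b-3p, miR-369-5p and miR-376c-3p reached the read minimum only in TGF-b1, with 2 to 7 reads in a Control library. They were thus tested because they were high there, which favours a positive value. Without a filter, 22 of all 61 members were higher and 0 lower, against 74 higher of 778. Of the 61, 56 had a value above 0. The libraries' scaling bears on the split of calls over all miRNAs: with TMM scaling it was 98 higher and 94 lower, the median of all moved to -0.03, and 23 of the 26 members were higher and 0 lower. The plot of level against change sets the members among all tested miRNAs.

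**Figure D1:**
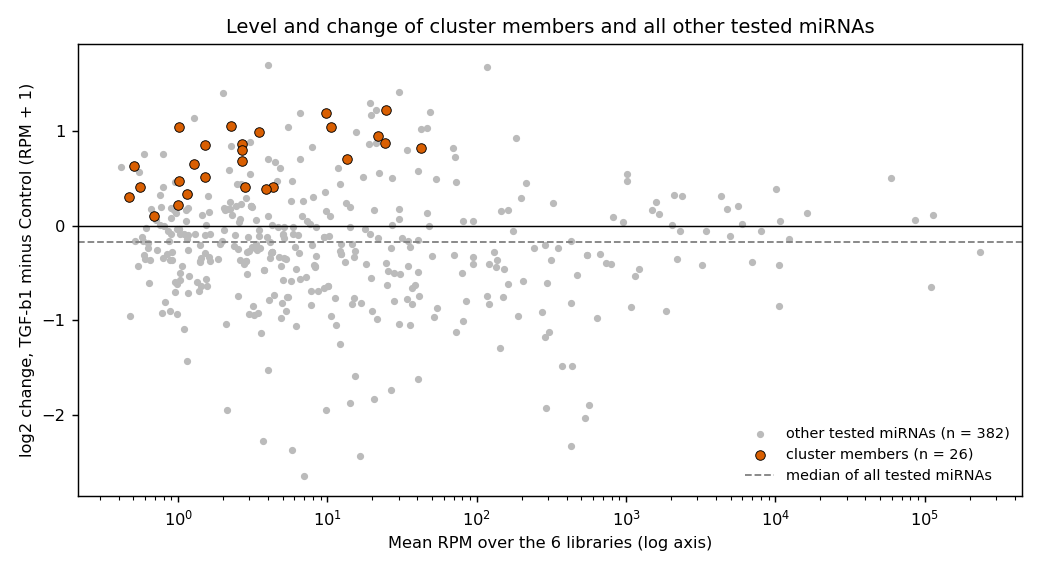
Each point is a miRNA, with its mean RPM over the 6 libraries on a log axis and its log2 change (TGF-b1 minus Control, on RPM + 1) on the vertical axis; orange points are the 26 tested cluster members, grey points all others, and the dashed line is the median of all tested miRNAs. The members lie between mean levels of 0.465 and 42.1 RPM, and all 26 lie above 0.

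A log2 change above 1 was reached by 5 of the 26 members, against 18 of 408, or 4.41%, over all tested miRNAs. In 22 of the 26 members, or 84.6%, every TGF-b1 library lay above every Control library, against 85 of 408, or 20.8%, over all. The 22 include the members named above that reached the read minimum only in TGF-b1. With edgeR's quasi-likelihood test and TMM scaling on the recovered reads, 21 of the 26 were higher and 0 lower, against 85 of 408, again 20.8%, over all, and the median log2 change of the members was 1.12. This setting differs from the main test both in scaling and in leaving out the added 1 RPM. TMM scaling with 1 RPM added gave a median of 0.87, and edgeR with library totals gave 0.97.

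**Figure D2:**
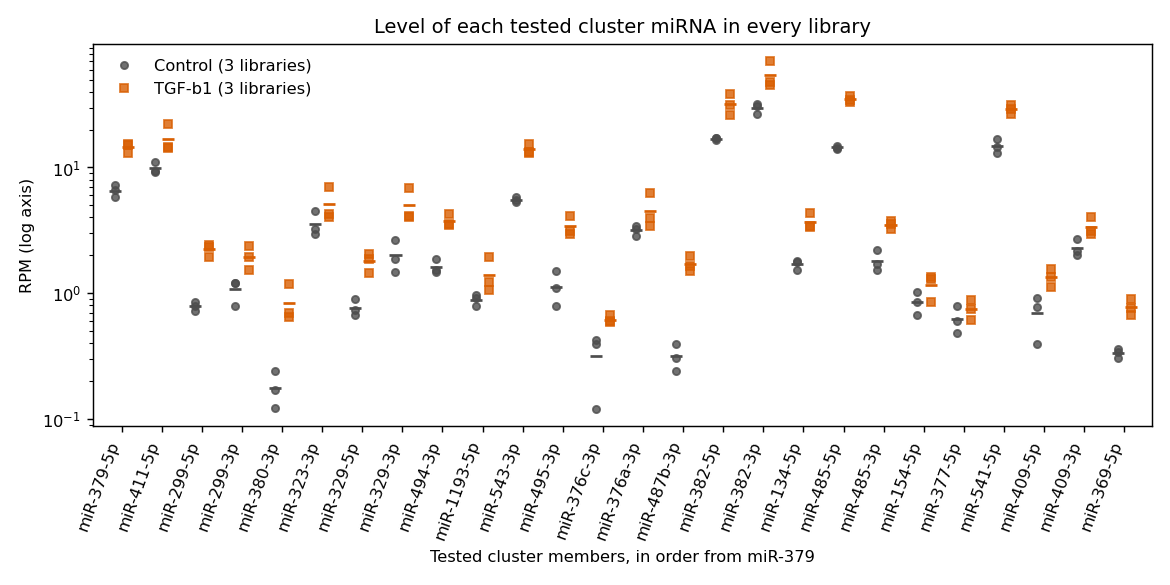
RPM of the 26 tested members in each library on a log axis, ordered from miR-379 towards miR-410. Grey circles are Control, orange squares TGF-b1, and short bars the group means (n = 3 each). The squares sit above all circles in 22 members and overlap them in 4, miR-323-3p, miR-376a-3p, miR-154-5p and miR-377-5p.

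The highest levels came from miR-382, a miRNA reported to target superoxide dismutase 2 in TGF-β1-treated renal epithelial cells. MiR-382-3p was at 31.1, 31.9 and 26.5 RPM in the Control libraries and 69.9, 48.3 and 45.1 RPM in the TGF-b1 libraries. The groups did not overlap, and TGF-b1 replicate 1 was 1.497 times the mean of the other two. Its mean was 29.8 ± 2.92 RPM for Control and 54.4 ± 13.5 for TGF-b1 (SD, n = 3 each), which gave a log2 change of 0.82 ± 0.18 (SE), at a limma adjusted p of 0.00711. MiR-382-5p was at 17.1, 16.5 and 17.1 RPM in Control and 38.8, 31.2 and 26.2 in TGF-b1. All Control libraries were nearly alike and all TGF-b1 libraries lay above them. The log2 change was 0.87 ± 0.16 (SE), at a limma adjusted p of 0.00325, close to that of the 3p arm.

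MiR-485-5p, best known from neurons, had the largest limma log2 change of the tested members. It was at 14.1, 14.3 and 14.8 RPM in Control and 37, 34.7 and 32.9 RPM in TGF-b1. The gap between the groups was wide against the spread within each. The means were 14.4 ± 0.346 and 34.9 ± 2.05 RPM (SD, n = 3 each), a ratio of 2.42 and a log2 change of 1.22 ± 0.12 (SE), at a limma adjusted p of 0.000156, and it stayed between 1.17 and 1.26 with each library left out in turn. The other arm, miR-485-3p, was at 1.70, 2.22 and 1.53 RPM in Control and 3.52, 3.24 and 3.75 in TGF-b1, without overlap. It changed by 0.68 ± 0.14 on the log2 scale (SE), at a limma adjusted p of 0.00583, a ratio of means of 1.93.

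MiR-541-5p, from an intron of Mirg, was at 12.9, 14.5 and 16.8 RPM in Control and 26.8, 29.2 and 31.4 in TGF-b1. The lowest TGF-b1 library lay well above the highest Control library. The log2 change was 0.94 ± 0.14 (SE), at a limma adjusted p of 0.00134. It lies 33.3 kb from the start of Mir379, near the miR-410 end of the cluster.

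At the miR-379 end, miR-379-5p, which has been reported to target the mRNA of the endoplasmic reticulum protein Edem3 in mesangial cells, was at 5.83, 7.19 and 6.58 RPM in Control and 13, 15.4 and 15.2 in TGF-b1. The groups did not overlap, and here TGF-b1 replicate 1 was the lowest of its group. The log2 change was 1.04 ± 0.14 (SE), at a limma adjusted p of 0.000828, and 0.98 without Control replicate 1. Its neighbour miR-411-5p was at 11, 9.17 and 9.31 RPM in Control and 22.3, 14.2 and 14.5 in TGF-b1. The groups did not overlap, but TGF-b1 replicate 1 was 1.55 times the mean of the other two. The log2 change was 0.71 ± 0.19 (SE), at a limma adjusted p of 0.0168, and without Control replicate 2 the adjusted p was 0.0641.

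Of the 3p arms at this end, miR-379-3p had at most 2 reads in any library and was below the read minimum (without that filter, limma adjusted p = 0.428). MiR-411-3p, which shares its seed, had 1, 2 and 4 reads in Control and 9, 18 and 14 in TGF-b1, or 0.0607, 0.120 and 0.227 RPM against 0.446, 1.005 and 0.819 RPM. Every TGF-b1 library lay above every Control library. The row was below the read minimum of the main test, and without that filter it was higher, by 0.62 on the log2 scale (limma adjusted p = 0.00938). The 5p arm thus held most of the reads of both hairpins in both groups.

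Further along, miR-543-3p was at 5.46, 5.81 and 5.33 RPM in Control and 13.3, 15.4 and 13.1 in TGF-b1. The spread within each group was small against the gap. The means were 5.54 ± 0.249 and 13.9 ± 1.25 RPM (SD, n = 3 each). This gave a log2 change of 1.19 ± 0.13 (SE), at a limma adjusted p of 0.000355.

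MiR-495-3p, which differs from miR-543-3p at 2 seed bases and has been studied with miR-329, miR-487b and miR-494 in vessel growth, was at 1.09, 1.499 and 0.794 RPM in Control and 3.12, 2.96 and 4.10 in TGF-b1. The groups did not overlap. The ratio of means was 3.01 and the log2 change 1.05 ± 0.17 (SE), at a limma adjusted p of 0.00196, which fell below 1 without Control replicate 3 or without TGF-b1 replicate 3, to 0.93 at the lowest. MiR-329-3p was at 2.67, 1.86 and 1.48 RPM in Control and 4.12, 4.02 and 6.85 in TGF-b1, again without overlap. Its log2 change was 0.99 ± 0.23 (SE), at a limma adjusted p of 0.00833.

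MiR-487b-3p had the highest ratio of means of the tested members, from few reads. It reached the read minimum only in TGF-b1, so this rank depends in part on the filter. It had 5, 4 and 7 reads in Control and 33, 27 and 34 in TGF-b1, or 0.303, 0.240 and 0.397 RPM against 1.64, 1.51 and 1.99 RPM. The lowest TGF-b1 library was well above the highest Control library. The ratio of means was 5.46, the limma log2 change 1.04 ± 0.12 (SE, adjusted p = 0.000522) and the edgeR log2 change 2.56 (adjusted p = 0.000233). The limma value was 0.97 without TGF-b1 replicate 3.

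Of the 10 most abundant tested members, 2 did not pass the test and overlapped between the groups. MiR-323-3p was at 3.22, 2.94 and 4.48 RPM in Control and 6.99, 4.02 and 4.27 in TGF-b1. TGF-b1 replicate 1 was 1.69 times the mean of the other two, and those lay within the Control range. Its log2 value was 0.41 ± 0.22 (SE), at a limma adjusted p of 0.166. MiR-376a-3p was at 3.22, 3.42 and 2.84 RPM in Control and 6.25, 3.41 and 3.98 in TGF-b1. Its replicate 1 was also 1.69 times the mean of the other two, and TGF-b1 replicate 2 lay within the Control range. Its log2 value was 0.38 ± 0.20 (SE), at a limma adjusted p of 0.152, whereas it passed with TMM scaling (0.55, limma adjusted p = 0.0395) and with edgeR (0.68, adjusted p = 0.0418).

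The last hairpins, miR-369 and miR-410, had low levels. MiR-369-5p was at 0.303, 0.360 and 0.341 RPM in Control and 0.892, 0.670 and 0.761 in TGF-b1, from 5 to 6 and 12 to 18 reads. The groups did not overlap, with a log2 change of 0.41 ± 0.11 (SE), at a limma adjusted p of 0.0156, which missed the threshold without Control replicate 1 (adjusted p = 0.0549) and with DESeq2 (adjusted p = 0.121). MiR-369-3p had 2 reads in each Control library and 13, 4 and 3 in TGF-b1. MiR-410-3p had 5, 3 and 6 reads in Control and 8, 3 and 6 in TGF-b1, and miR-410-5p had 4, 1 and 0 against 4, 7 and 5. These 3 rows were below the read minimum, and those of miR-410 overlapped between the groups. Without the filter none of the 3 passed, with log2 values of 0.25 for miR-369-3p, 0.03 for miR-410-3p and 0.24 for miR-410-5p (limma adjusted p = 0.168, 0.827 and 0.1003).

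The other 12 tested members had mean levels of 0.465 to 2.82 RPM, and they are named here with their values already seen. Of these, 7 rose, by 0.47 to 0.87 on the log2 scale (limma adjusted p from 0.00115 to 0.0367): miR-494-3p, miR-134-5p, which is known to limit dendritic spine size through Limk1, both arms of miR-299, miR-329-5p, miR-380-3p and miR-409-5p. MiR-380-3p had 2 to 4 reads in a Control library and 11 to 21 in a TGF-b1 library, a ratio of means of 4.72 (edgeR log2 change 2.35, adjusted p = 0.00391). It too reached the read minimum only in TGF-b1. The calls of miR-299-3p and miR-409-5p were the least stable of the 19. MiR-299-3p (adjusted p = 0.0290) was called without TGF-b1 replicate 3 but missed the threshold without any 1 of the other 5 libraries (adjusted p up to 0.102), and miR-409-5p (adjusted p = 0.0367) missed it without Control replicate 2 or 3 or TGF-b1 replicate 1 or 2 (up to 0.129). Of the 12, 5 did not pass: miR-409-3p, miR-1193-5p, miR-376c-3p, miR-377-5p and miR-154-5p, a miRNA reported as responsive to TGF-β1 in lung fibroblasts, with limma log2 values of 0.10 to 0.41 and adjusted p from 0.0605 to 0.534. In miR-409-3p, miR-1193-5p and miR-376c-3p all TGF-b1 libraries nevertheless lay above all Control libraries. MiR-1193-5p, which carries the seed of miR-379-5p, had a log2 value of 0.34 ± 0.16 (SE) beside 1.04 ± 0.14 for miR-379-5p, a difference that was not tested. The added 1 RPM weighs more on the lower row. The ratios of means were 1.59 and 2.22, and the edgeR log2 changes 0.82 and 1.30.

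The 35 members below the read minimum had 1 to 48 reads over all 6 libraries, 18 of them under 10, and a mean of at most 0.446 RPM. Their sum was 3.22 ± 0.586 RPM in Control and 7.13 ± 0.872 RPM in TGF-b1 (SD, n = 3 each), a ratio of 2.21. The mean was higher in TGF-b1 in 30 of the 35 and lower in 5, whereas over all 370 miRNAs that were not tested it was higher in 161, or 43.5%. In 11 of the 35 every TGF-b1 library was above every Control library, against 26 of 370, or 7.03%. In 0 of the 35 every TGF-b1 library was below, against 39 of 370, or 10.5%. No read was seen in the Control libraries for 8 and in the TGF-b1 libraries for 2, which allows up to 3 reads per library at the limit given above. Members with at least 1 read numbered 42 to 49 in a Control library and 51 to 54 in a TGF-b1 library. The same counts were not taken over all miRNAs, so both only describe detection near the floor.

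By position, the tested members lay from 0 to 34.4 kb from the start of Mir379 (RefSeq, GRCm38.p6). Members that rose were found along the whole span, as the plot of change against distance shows. The share that rose over all 408 tested miRNAs was 17.4%, with a median log2 change of -0.17. From miR-379 to miR-495, at 9.69 kb, 12 members were tested, 10 rose and the median log2 change was 0.78. From miR-376c to miR-487b, at 13.7 to 18.3 kb, 3 were tested and 1 rose, with a median of 0.38. From miR-382 to miR-485, at 24.7 to 25.8 kb, all 5 tested members rose, with a median of 0.82. From miR-154 to miR-369, at 29.4 to 34.4 kb, where the annotated hairpins lie within Mirg, 6 were tested and 3 rose, with a median of 0.41. These stretches were set with the values already seen and their differences were not tested. Their median ratios of TGF-b1 to Control means were 2.33, 1.96, 1.93 and 1.70 in the same order.

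**Figure D3:**
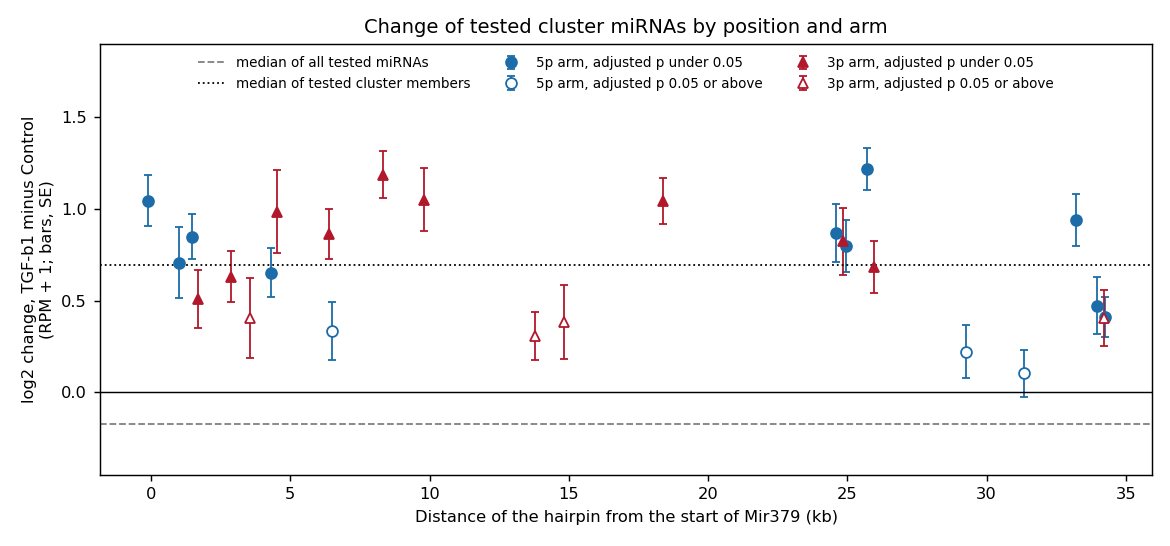
Log2 change (TGF-b1 minus Control, on RPM + 1) of the 26 tested members against the distance of the hairpin from the start of Mir379 in kb; circles are 5p arms, triangles 3p arms, filled where the adjusted p is under 0.05, bars are the SE, and members of 1 hairpin are set slightly apart. All points lie above 0 and above the dashed median of all tested miRNAs at -0.17, and called members occur at both ends and in between.

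Across the 26 members, which share libraries and in part hairpins, the log2 change had a Pearson r of -0.24 and a Spearman rho of -0.22 with distance. With mean RPM it had an r of 0.44 and a rho of 0.56, whereas the edgeR change, which adds no 1 RPM, had an r of -0.09 with mean RPM. With the GC content of the mature sequence, over the 23 tested members that have one, r was -0.39 and rho -0.45 on the limma scale, and -0.55 and -0.56 on the edgeR scale. These are descriptions over members, which are not independent, and carry no p.

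By arm, 10 of 13 tested 5p members and 9 of 13 tested 3p members rose, with median log2 changes of 0.71 and 0.68. Among all 408 tested miRNAs 17.4% rose, with a median of -0.17. Both arms were tested in 5 hairpins, miR-299, miR-329, miR-382, miR-409 and miR-485, and both arms rose in 4 of them. For miR-409 the 5p arm rose and the 3p arm did not pass (adjusted p = 0.0605). The change of the log2 ratio of 3p to 5p was tested with limma over the 84 hairpins of the table whose arms each averaged 1 RPM or more, of which 28, or 33.3%, passed at an adjusted p under 0.05.

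Of the 5 cluster hairpins, miR-485 passed, with a change of -0.53 ± 0.19 (SE), at a limma adjusted p of 0.0436. The size varied with the pseudocount, from -0.34 with 0.1 to -0.68 with 10 (limma adjusted p = 0.305 and 0.00248). Its 3p to 5p ratio in RPM was 0.120, 0.155 and 0.103 in the Control libraries and 0.0950, 0.0934 and 0.114 in the TGF-b1 libraries. The ratios overlapped between the groups, since TGF-b1 replicate 3 lay above Control replicate 3. The call was lost with a pseudocount of 0.1 (-0.34, adjusted p = 0.305), with a replicate block (adjusted p = 0.0986), with the sum of listed rows (0.0563), with a prior without a trend (0.0755), and without any 1 library other than TGF-b1 replicate 3. The other 4 hairpins had adjusted p from 0.314 to 0.872. In miR-382 the 3p arm exceeded the 5p arm in all libraries, with ratios of 1.55 to 1.93 in Control and 1.55 to 1.80 in TGF-b1, and a change of -0.05 ± 0.24 (SE).

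**Figure D4:**
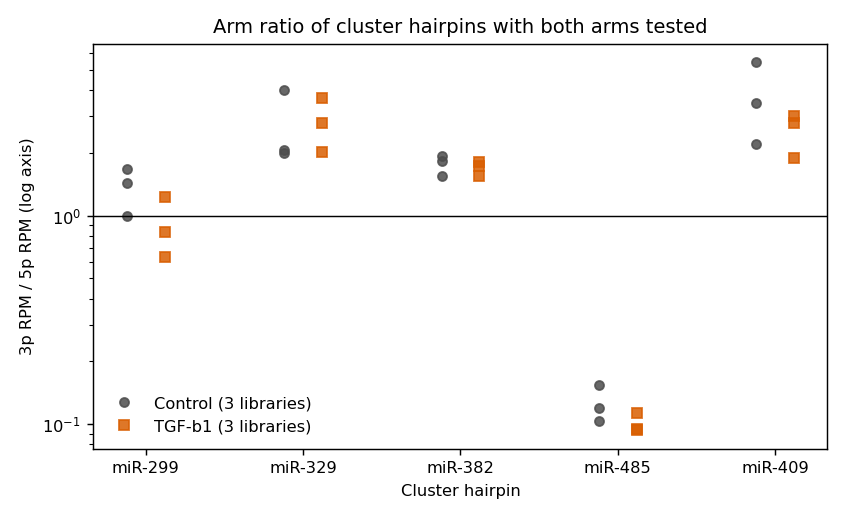
Ratio of 3p RPM to 5p RPM in each library, on a log axis, for the 5 cluster hairpins with both arms tested; grey circles are Control, orange squares TGF-b1, 3 libraries each, and the line marks equal arms. The groups overlap in all 5 hairpins, including miR-485, where the 5p arm exceeds the 3p arm in every library.

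The TGF-b1 libraries did not rank alike over the members. The highest value of the 26 tested members fell in TGF-b1 replicate 1 for 12 members, replicate 2 for 6 and replicate 3 for 8, and in Control for 0. These counts were not taken over all tested miRNAs, so they only describe the members. Against the mean of the other two, TGF-b1 replicate 1 ranged from 0.642 times for miR-154-5p to 1.70 times for miR-1193-5p. Without it, 17 of the 26 members were higher at a limma adjusted p under 0.05 and 0 lower, with a median log2 change of 0.66. Over all 408 tested miRNAs 66 were then higher and 135 lower, with a median of -0.13.

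The same domain holds further miRNAs upstream of miR-379, of which 26 rows were listed and 8 tested. Of these 8, 5 rose and 0 fell, 3 by a log2 change above 1, and their median of 0.82 compares with 0.69 for the distal cluster. Over all 408 tested miRNAs, 17.4% were higher, 4.41% by a log2 change above 1, and the median was -0.17. MiR-127-3p, transcribed antisense to Rtl1, was at 28.1, 30.6 and 24.9 RPM in Control and 61.1, 59.4 and 51.4 in TGF-b1, a log2 change of 1.02 ± 0.13 (SE), at a limma adjusted p of 0.000682. MiR-433-3p was at 15.8, 16.2 and 15.9 RPM in Control and 44.5, 45.3 and 42.9 in TGF-b1, a log2 change of 1.41 ± 0.11 (SE), at a limma adjusted p of 4.62e-05. Neither overlapped between the groups. MiR-341-3p, the third by mean level, overlapped, at 10.2, 8.99 and 4.60 RPM in Control and 8.38, 3.80 and 3.28 in TGF-b1, with a log2 value of -0.57 ± 0.36 (SE), at a limma adjusted p of 0.228, or 0.0329 as lower without TGF-b1 replicate 1. The summed level of the 26 rows was 62.5 ± 7.03 RPM in Control and 128.5 ± 8.29 RPM in TGF-b1 (SD, n = 3 each), a ratio of 2.06 beside 1.999 for the distal cluster, and the difference between the lists was not tested.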

How the data were processed

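Small RNA of 6 libraries was sequenced on an Illumina HiSeq instrument. Per the study's methods, the authors removed adaptors, short and low-quality reads and compared the rest with known mouse miRNAs using Bowtie. The values, deposited under the name TPM, are RPM: the authors divided by a library total that exceeds the summed rows, and no scaling by length was found. Whole reads were recovered from the RPM steps, and within a tolerance of 0.002 this gave whole numbers for 100% of values.

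Groups were compared on log2(RPM + 1) in limma 3.58.1 (R 4.3.3, trended prior, no covariates). Of the 778 miRNAs, 408 passed filterByExpr (edgeR 4.0.16, minimum count 10). This filter asks for enough reads in as many libraries as 1 group holds, so a row can pass through 1 group alone. P-values were adjusted by Benjamini-Hochberg over all 408. The study's own tool was a count test, but normalized values were deposited, so count tests (edgeR, DESeq2 1.42.0) on recovered reads were alternatives. Arm ratios were tested with limma on log2(3p + 1) minus log2(5p + 1). Other alternatives were scalings (TMM, upper-quartile, median-of-ratios, sum of listed rows), pseudocounts of 0.1 and 10, filters, 1 row kept of identical rows, a replicate block, and leaving out each library; edgeR with library totals and an arm ratio prior without a trend were chosen after seeing the data. Scripts were tested on simulated data.

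Members in full are the 10 most abundant tested, those called with a log2 change above 1, both arms of hairpins with a called arm ratio, and miR-379, miR-411, miR-369 and miR-410. A further rule, a log2 change at or below the median of all tested miRNAs, named 0 members. The members, lists and this rule were chosen with earlier results of these data known. Marker lists held well-known miRNAs of each cell type. Whether replicate numbers pair the samples is not stated, and same-numbered deviations from the group means showed no positive correlation (-0.08, -0.21 and -0.34). With 3 libraries per group this cannot exclude pairing.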

Additional observations from a re-analysis of the deposited data

How the results depend on the processing

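As reported and under every alternative, 0 of the tested members were lower and no named member reversed: set against their main values, 449 values of members under the alternatives kept direction and side of the threshold, 16 lost the call, 14 gained it and 0 reversed. The 19 members called became 8 of 11 tested with a mean of at least 50 reads, where fewer rows are tested, 16 of 26 with DESeq2, 22 of 61 without a filter, where miR-299-3p and miR-409-5p lost the call (limma adjusted p = 0.0732 for both), and 16 to 19 with 1 library left out. Over all miRNAs, the number called higher in these settings was 49 of 281, 75 of 408, 74 of 778 and 59 to 66 of 408. The 5 members above a log2 change of 1 became 10 with TMM, median-of-ratios or sum-of-rows scaling, 12 with upper-quartile scaling, a pseudocount of 0.1 or edgeR with library totals, 16 with DESeq2, 18 with edgeR and TMM, 3 with a mean of at least 50 reads, 0 with a pseudocount of 10 and 0 above a log2 change of 2, where the 50 of all miRNAs became 6. These members numbered 4 to 6 with 1 library left out, against 15 to 21 over all miRNAs. Over all, the 18 became 29 to 31 with TMM, median-of-ratios or sum-of-rows scaling and 35 with upper-quartile scaling. They became 32 with a pseudocount of 0.1 or edgeR with library totals, 46 with DESeq2 and 45 with edgeR and TMM. With a mean of at least 50 reads they became 14, and with a pseudocount of 10 they became 2. The median log2 change of 0.69 became 0.87 with TMM, median-of-ratios or a mean of at least 50 reads, 0.85 with the sum of rows, 0.95 with upper-quartile scaling or a pseudocount of 0.1, 0.18 with a pseudocount of 10, 0.24 over all 61 rows without a filter, 0.97 with edgeR and library totals, 1.12 with edgeR and TMM and 1.19 with DESeq2, and 0.66 to 0.78 with 1 library left out. The rise in summed RPM, 124.9, was 188.9 per 1000000 listed reads.

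The 28 changed arm ratios became 15 with a pseudocount of 0.1, 13 with both arms at 5 RPM or more, 22 with a prior without a trend, 10 with the replicate block and 1 to 22 with 1 library left out, the 1 being without Control replicate 1 or TGF-b1 replicate 2. The 1 cluster hairpin among them, miR-485, became 0 with the sum of rows, a pseudocount of 0.1, the replicate block and the prior without a trend (at an unadjusted p under 0.05, limma gave 1 in each of these but 0 with the pseudocount), and 0 to 1 with 1 library left out. With the 5 RPM minimum miR-485 was not tested, and the count was 0 of 1 hairpin, miR-382 (0 at an unadjusted p under 0.05). The replicate block left 19 members called and 176 of all miRNAs against 201, and changed no other call of a member. Where the cause of a shift is not in the setting's construction, it was not tested. Depth limits the 35 untested members, with at most 48 reads in all.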

Other observations

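Outside the cluster, some listed miRNAs carry the seed of a member, and their values are given as a description. MiR-362-3p, from another chromosome, has the seed of miR-329-3p, ACACACC. It was lower in TGF-b1, at 19 ± 2.04 RPM for Control and 10.3 ± 1.88 for TGF-b1 (SD, n = 3 each). It changed by -0.82 ± 0.16 (SE) on the log2 scale, at a limma adjusted p of 0.00486. MiR-329-3p itself was at 2.001 ± 0.610 and 4.99 ± 1.61 RPM. MiR-672-5p, with the seed of miR-377-5p, was at 28.9 ± 2.79 and 24.3 ± 1.25 RPM and did not pass the test (limma adjusted p = 0.158). MiR-344d-3p, with the seed of miR-410-3p, was at 0.929 ± 0.174 and 1.45 ± 0.440 RPM and did not pass either (limma adjusted p = 0.129).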
